A study of Mus musculus with 8 samples.

Results

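Cholesterol leaves a cell through a short chain of proteins, and this chain was described in brown adipose tissue (BAT), the heat-producing fat depot of rodents, of wild-type (WT) and db/db mice. The 10 genes were chosen by name for their roles in sterol efflux, exit of cholesterol from the lysosome, esterification and lipoprotein exchange, and all 10 were found among the 31053 genes of the count table. They were Apoe, Apoc1, Pltp, Scarb1, Abca1, Abcg1, Nr1h3, Npc1, Npc2 and Soat1. Of these, 8 passed the filter on low counts that left 9264 genes for testing, whereas Abcg1 and Soat1 did not pass and are given as counts.

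Bulk RNA-seq had been made from 4 WT and 4 db/db mice, all males of 8 weeks, to find out how obesity changes this tissue. The labels give C57BL6/J as the strain of both groups, and db/db mice carry the Leprdb mutation of the leptin receptor gene, which makes them overeat, become obese and turn diabetic. The study's methods give Jackson Laboratories as the source of the B6.BKS(D)-Leprdb/J mice and name both Charles River Laboratories and Jackson Laboratories for WT mice, so whether the supplier differed between the groups is not clear, and tissue was taken from fasted animals. The labels name the cells a stromal vascular fraction, the part of fat without adipocytes, but transcripts of adipocytes were abundant in all 8 libraries, with the summed level of 6 adipocyte genes between 8861 and 19502 CPM (counts scaled to a common library size).

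Macrophages, adipocytes and endothelial cells all take up lipoproteins, and in their lysosomes the cholesteryl esters are cut by acid lipase, after which NPC2 hands free cholesterol to NPC1 in the lysosomal membrane. The sterol is then either stored as an ester by the enzyme SOAT1 or exported by the transporters ABCA1 and ABCG1 to lipid-poor apolipoproteins and to high-density lipoprotein (HDL). Oxysterols bind the nuclear receptor LXR alpha, the product of Nr1h3, which as a dimer with RXR switches on Abca1, Abcg1, Apoe, Apoc1 and Pltp.

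The WT libraries held 2374079 to 2615009 counts and the db/db libraries 2382722 to 3240074, and 3 counts, taken as the smallest detectable level, stood for 0.902 to 1.33 CPM. Lepr itself had 0 counts in every library and could not serve as a check of genotype. Markers of several cell types moved with genotype, and their part in the results below was not tested, apart from a fit with a skeletal muscle score that is given with Scarb1. Of all genes tested, 15.8% were higher and 11.9% lower in db/db, and the marker counts stand beside these shares. Of 13 macrophage markers tested, 11 were higher in db/db, and the sum of the whole list of 14 lay between 200.05 and 255 CPM in WT and between 789 and 1390 CPM in db/db. Of 8 markers of lipid-associated macrophages, 7 were higher, of which Trem2 (0 to 1 counts in WT, 10 to 33 in db/db) and Cd9 (5 to 9 in WT, 10 to 37 in db/db) reached the filter through db/db, while 5 of 6 brown adipocyte markers tested were lower, with sums of 7289 to 9025 CPM in WT and 3080 to 5597 CPM in db/db. Fibroblast markers were higher for 7 of 8, endothelial markers lower for 3 of 7, and all 16 skeletal muscle genes higher. Of 6 adipocyte markers 2 were higher, with sums of 8861 to 15741 CPM in WT and 14523 to 19502 CPM in db/db, and of 2 neutrophil markers tested 1 was higher, with sums of 0.752 to 12.2 CPM in WT and 23.05 to 26.5 CPM in db/db. Other markers counted as higher, such as Adgre1, Itgam, Aif1, Pdgfra, Casq1 and S100a8, also had WT libraries under 10 counts, so these counts of markers describe the libraries and are no test of a list. The db/db replicate 1 stood apart from the other libraries, with 12401 CPM of skeletal muscle transcripts against 2476 to 5536 CPM in the other db/db libraries and 14.1 CPM of lymphocyte transcripts against 6.75 CPM or less elsewhere. Of 4 erythroid genes, all tested, 1 was higher in db/db, and db/db replicate 4 held 16921 CPM of them against 6435 to 6986 CPM in the other db/db libraries and 3087 to 8669 CPM in WT. Without db/db replicate 4 the same 4 members were called as with it, Apoc1 at −2.23, Npc1 at −1.42, Scarb1 at −1.06 and Pltp at 2.15 on the log2 scale. Of 6 hepatocyte markers, none passed the filter, and Ttr, Serpina1a and Fgb had 0 counts in all libraries. In bulk tissue, fewer cells of a type and less RNA per cell cannot be told apart.

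Promoter sequences are shown for Abca1 and Pltp, because both are textbook targets of LXR and 1 of them passed the test below and the other did not. Each sequence runs from 250 bases before the RefSeq start site to 50 bases after it (GRCm38.p6, minus strand, written 5′ to 3′), and capitals mark the motifs that were found.
Abca1, chr4:53159846-53160145: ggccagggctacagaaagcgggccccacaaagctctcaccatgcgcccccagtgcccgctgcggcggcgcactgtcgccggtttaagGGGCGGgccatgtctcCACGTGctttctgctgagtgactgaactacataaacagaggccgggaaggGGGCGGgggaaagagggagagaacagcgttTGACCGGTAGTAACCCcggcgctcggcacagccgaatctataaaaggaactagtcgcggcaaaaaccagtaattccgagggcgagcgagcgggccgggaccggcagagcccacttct
Pltp, chr2:164857659-164857958: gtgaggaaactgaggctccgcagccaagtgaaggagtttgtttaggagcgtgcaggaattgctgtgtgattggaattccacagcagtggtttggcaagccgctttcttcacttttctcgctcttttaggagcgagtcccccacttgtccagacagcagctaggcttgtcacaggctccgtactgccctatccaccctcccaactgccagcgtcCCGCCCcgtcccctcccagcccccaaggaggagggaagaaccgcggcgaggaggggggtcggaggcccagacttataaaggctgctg
The windows were searched on both strands for 4 motifs. These were the DR4 element of LXR and RXR (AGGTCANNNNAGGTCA, with up to 3 mismatches), the E-box CACGTG, the GC box GGGCGG and the sterol regulatory element (SRE) TCACCCCAC with up to 1 mismatch. The Abca1 window held a DR4 match on the opposite strand, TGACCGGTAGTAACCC, beginning at position −67 with 3 mismatches, an E-box at −147 and GC boxes at −163 and −97. The Pltp window held a GC box on the opposite strand at −37 and no match to the other motifs. Such matches were common, since 21.9% of 32841 RefSeq promoter windows held DR4 at this tolerance, 7.15% the E-box, 35.7% the GC box and 9.82% the SRE, so a match describes the letters and is not evidence of binding. Windows were given for 6 of the members, and among the others Nr1h3 and Apoe held an SRE match each, Npc2 held 3 GC boxes and Soat1 held 1. Abcg1, Apoc1, Npc1 and Scarb1 are named only.

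Of the 8 genes tested, 4 differed between the genotypes at an adjusted p under 0.05 (edgeR quasi-likelihood test, Benjamini-Hochberg adjustment over all 9264 genes). Pltp was higher in db/db, and Apoc1, Npc1 and Scarb1 were lower. Of all genes tested, 27.7% were called, made up of the 15.8% higher and 11.9% lower given above. The same 4 members had no overlap between the 4 WT and the 4 db/db libraries, against 28.1% of all genes. The median log2 fold change of the 8 members was −0.30, beside 0.01 for all genes. Apoe, Abca1, Nr1h3 and Npc2 did not pass.

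**Figure D1:**
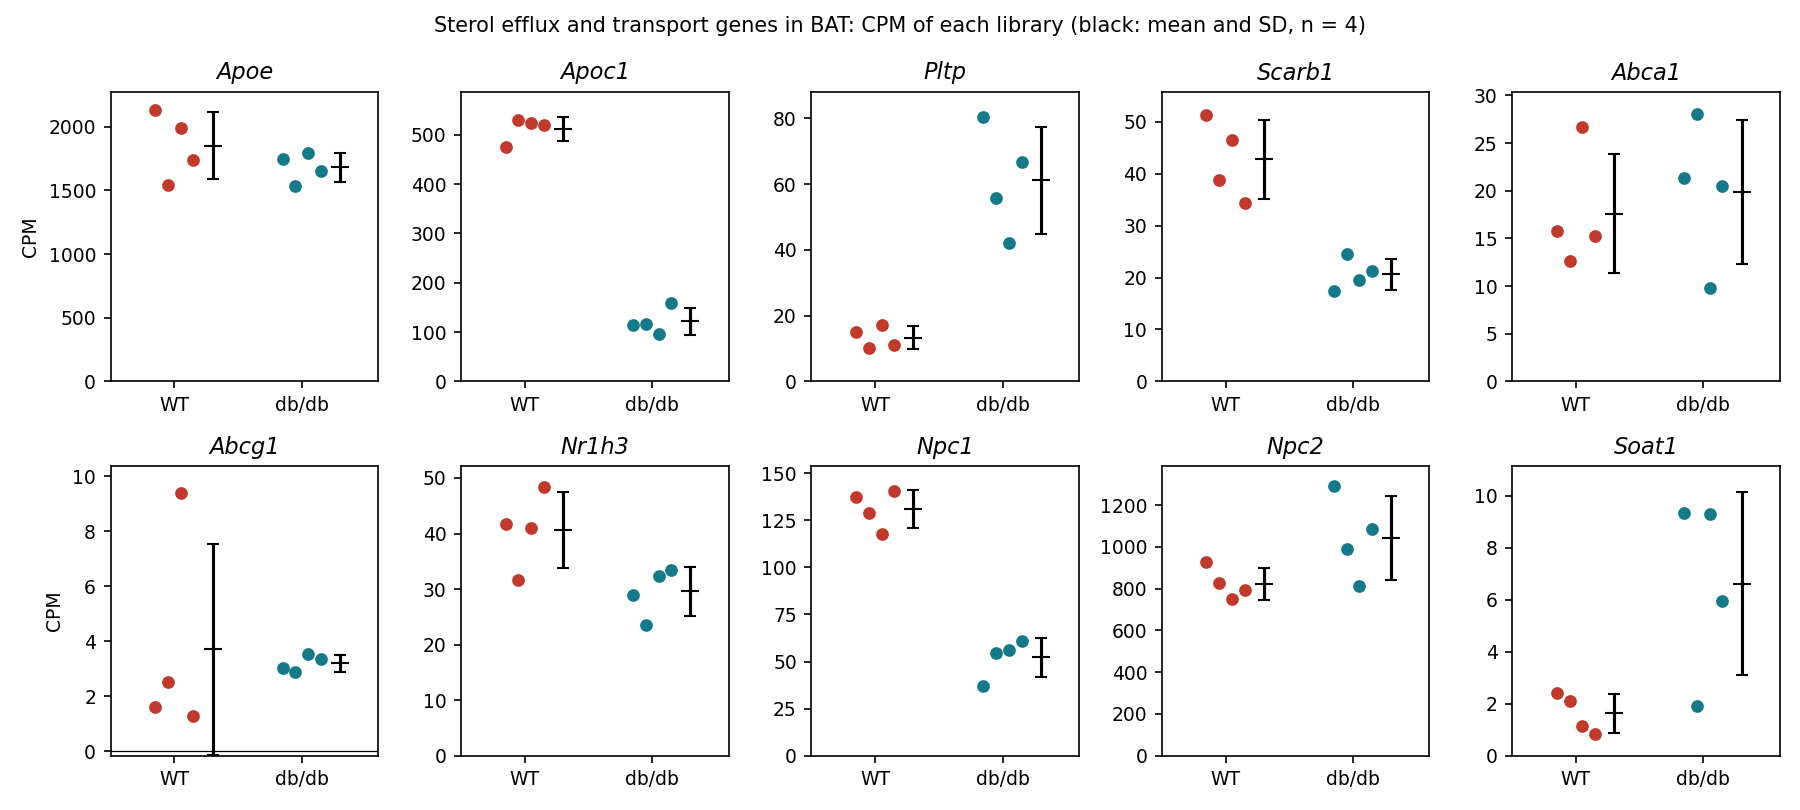
Level of each of the 10 genes in CPM (vertical axis, linear) in the 4 WT libraries (red points) and the 4 db/db libraries (blue points), with the mean and SD of each group in black. The groups are apart for Apoc1, Pltp, Scarb1 and Npc1 and overlap for the other genes, and for Abcg1 the lower SD bar of WT ends below 0 because WT replicate 3, at 9.39 CPM, lies far above the others.

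Apolipoproteins are the protein coat of lipoproteins and accept or carry the exported sterol. Apoe (ENSMUSG00000002985, chr7:19696109-19699188, mm10, minus strand), which binds lipoprotein receptors and is secreted in quantity by macrophages, stood at 2135, 1542, 1989 and 1741 CPM in WT replicates 1 to 4. In db/db replicates 1 to 4 it stood at 1751, 1535, 1791 and 1651 CPM. The db/db replicate 2 lay just below the lowest WT value, the other db/db libraries lay inside the WT range, and the groups overlapped. The log2 fold change of db/db over WT was −0.14 (SE 0.14, 95% interval −0.43 to 0.15, edgeR adjusted p 0.496), and the interval reached changes in both directions.

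Apoc1 (ENSMUSG00000040564, chr7:19689481-19692660, mm10, minus strand) encodes a small apolipoprotein that inhibits the uptake of lipoprotein remnants. Its level was 475, 529.7, 523 and 519 CPM in WT replicates 1 to 4 and 113, 116, 97.1 and 159.6 CPM in db/db replicates 1 to 4. The WT libraries lay close together, with a coefficient of variation of 4.89%, and the highest db/db value was far below the lowest WT value. The db/db level was 4.21-fold lower, a log2 fold change of −2.07 ± 0.15 (SE; adjusted p 3.64e-08 by edgeR), and its p ranked 27 among the 9264 genes. The value rested on 1173 to 1392 counts per library in WT and 219 to 429 counts in db/db. Without db/db replicate 1 the log2 fold change was −2.04.

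Apoc1 and Apoe are neighbours, with 3448 bases and no annotated gene between them, and belong to a cluster that goes on with Apoc4 (chr7:19678083-19681479) and Apoc2 (chr7:19671579-19677941), all on the minus strand. A ratio of counts within a library does not depend on how libraries are scaled, so the neighbours were compared in this way. The log2 ratio of Apoc1 to Apoe was −2.17, −1.54, −1.93 and −1.75 in WT replicates 1 to 4 and −3.95, −3.72, −4.20 and −3.37 in db/db replicates 1 to 4. The groups were apart, and the mean ratio fell by 1.96 on the log2 scale (exact two-sided permutation p = 0.0286, the smallest that 4 against 4 libraries allow, and 0.0429 adjusted over 3 ratios). The 2 neighbours therefore changed by unequal amounts.

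Pltp (ENSMUSG00000017754, chr2:164839518-164857711, mm10, minus strand) encodes phospholipid transfer protein, which moves phospholipids onto HDL and remodels the particles. Its level was 14.97, 10.1, 17.3 and 11.0 CPM in WT replicates 1 to 4 and 80.3, 55.7, 42.1 and 66.6 CPM in db/db replicates 1 to 4. Every db/db library was above every WT library, with db/db replicate 1 the highest. Pltp was 4.56-fold higher in db/db, a log2 fold change of 2.19 ± 0.23 (SE; adjusted p 1.97e-06 by edgeR), and without db/db replicate 1 the log2 fold change was 2.02. Pltp and Ctsa (cathepsin A) run tail to tail on opposite strands and share 495 exon bases, 19.3% of the Pltp exons, and since the strand setting of the counting is not given in the sources used here the Pltp level is uncertain, and the share of its reads that fell in the overlap was not measured. Ctsa was also higher in db/db, at 40.2 ± 3.38 CPM in WT and 73.9 ± 8.29 CPM in db/db (SD, n = 4; log2 fold change 0.88, edgeR adjusted p 0.000241).

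Scarb1 (ENSMUSG00000037936, chr5:125277087-125341094, mm10, minus strand) encodes SR-BI, the receptor that takes up cholesteryl ester from HDL and also allows efflux to it. Its level was 51.4, 38.8, 46.6 and 34.4 CPM in WT replicates 1 to 4 and 17.4, 24.5, 19.5 and 21.2 CPM in db/db replicates 1 to 4. The highest db/db value, in replicate 2, lay below the lowest WT value, in replicate 4. Scarb1 was 2.07-fold lower in db/db, a log2 fold change of −1.05 ± 0.19 (SE; adjusted p 0.000418 by edgeR), and −0.98 on the log2 scale without db/db replicate 1 (adjusted p 0.00142). With a skeletal muscle score as a covariate the log2 fold change was −0.56 and the call was lost (edgeR adjusted p 0.353), in a fit that called 619 of the 9264 genes. That score itself lay between −1.32 and −0.115 in WT and between −0.00348 and 1.67 in db/db, so it moved with genotype.

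The exporters Abca1 and Abcg1 pump cholesterol out of the cell, ABCA1 to lipid-poor apolipoprotein A-I and ABCG1 to HDL. Abca1 (ENSMUSG00000015243, chr4:53030787-53159895, mm10, minus strand) stood at 15.8, 12.7, 26.7 and 15.3 CPM in WT replicates 1 to 4 and at 21.4, 28.0, 9.75 and 20.5 CPM in db/db replicates 1 to 4. The lowest of all 8 values was a db/db library and so was the highest, and the groups overlapped throughout. The log2 fold change was 0.19 (SE 0.29, 95% interval −0.43 to 0.80, edgeR adjusted p 0.681), an interval that spans changes in both directions.

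Abcg1 (ENSMUSG00000024030, chr17:31057675-31117988, mm10, plus strand) was near the limit of detection, with 4, 6, 25 and 3 counts in WT replicates 1 to 4 and 10, 9, 8 and 9 counts in db/db replicates 1 to 4. In CPM these were 1.62, 2.53, 9.39 and 1.27 in WT and 3.01, 2.86, 3.55 and 3.35 in db/db. WT replicate 3 stood alone at the top, the other WT libraries lay below all of db/db, and the groups overlapped. With no filter the log2 fold change was −0.29 (edgeR adjusted p 0.749), and it turned to 0.75 ± 0.71 (SE; edgeR adjusted p 0.515) without WT replicate 3, so its direction rested on that library and neither fit passed. The log2 ratio of Abca1 to Abcg1 averaged 2.56 ± 0.87 (SD) in WT and 2.48 ± 0.77 in db/db, with overlapping groups (n = 4 each; exact permutation p = 0.914).

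Nr1h3 (ENSMUSG00000002108, chr2:91184061-91202834, mm10, minus strand), the gene of LXR alpha, was at 41.7, 31.7, 41.0 and 48.4 CPM in WT replicates 1 to 4 and at 28.9, 23.5, 32.4 and 33.5 CPM in db/db replicates 1 to 4. WT replicate 2 lay among the db/db values, and the other WT libraries lay above all of them. The log2 fold change was −0.46 (SE 0.18, 95% interval −0.85 to −0.08, edgeR adjusted p 0.0659), which did not pass the threshold after adjustment. It passed without WT replicate 2 (−0.58, adjusted p 0.0353), with no filter (−0.51, adjusted p 0.0498) and with the replicate number as a block (−0.46, adjusted p 0.0498). An overlapping transcript on the same strand, Gm13783, shares 34 exon bases with it, 1.35% of its exons.

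Exit from the lysosome needs both Niemann-Pick C proteins, whose loss gives the same storage disease. Npc1 (ENSMUSG00000024413, chr18:12189692-12236400, mm10, minus strand), the membrane protein, was at 137, 129, 118 and 140.5 CPM in WT replicates 1 to 4 and at 37.0, 54.4, 56.3 and 61.0 CPM in db/db replicates 1 to 4. The groups were well apart, and db/db replicate 1 was the lowest. Npc1 was 2.52-fold lower in db/db, a log2 fold change of −1.33 ± 0.16 (SE; adjusted p 7.92e-06 by edgeR), and −1.20 on the log2 scale without db/db replicate 1. It shares 511 exon bases, 4.52% of its exons, with Rmc1 and 90 bases with Gm15956, both on the opposite strand. As for Pltp, the strand setting of the counting is not given, so the Npc1 level is uncertain too. The share of its reads that fell in these overlaps was not measured. Rmc1 was measured at 14.8 ± 5.42 CPM in WT and 7.71 ± 5.01 CPM in db/db (SD, n = 4; edgeR adjusted p 0.0926).

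Npc2 (ENSMUSG00000021242, chr12:84754562-84773152, mm10, minus strand), the soluble partner that binds cholesterol in the lumen, was measured beside it. Its level was 928, 828, 748 and 791 CPM in WT replicates 1 to 4 and 1293, 988, 811 and 1084 CPM in db/db replicates 1 to 4. Only db/db replicate 3 lay within the WT range, and the other db/db libraries lay above it. The log2 fold change was 0.34 (SE 0.15, 95% interval 0.03 to 0.65, edgeR adjusted p 0.0955), and it moved to 0.22 without db/db replicate 1 (adjusted p 0.257) and to 0.44 without db/db replicate 3 (adjusted p 0.0367), the only alternative under which it passed. The log2 ratio of Npc1 to Npc2 was −2.76, −2.68, −2.67 and −2.49 in WT replicates 1 to 4 and −5.12, −4.18, −3.84 and −4.15 in db/db replicates 1 to 4. The groups were apart, the ratio fell by 1.67 on the log2 scale (exact two-sided permutation p = 0.0286, adjusted p = 0.0429), and it fell by 1.41 without db/db replicate 1.

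**Figure D2:**
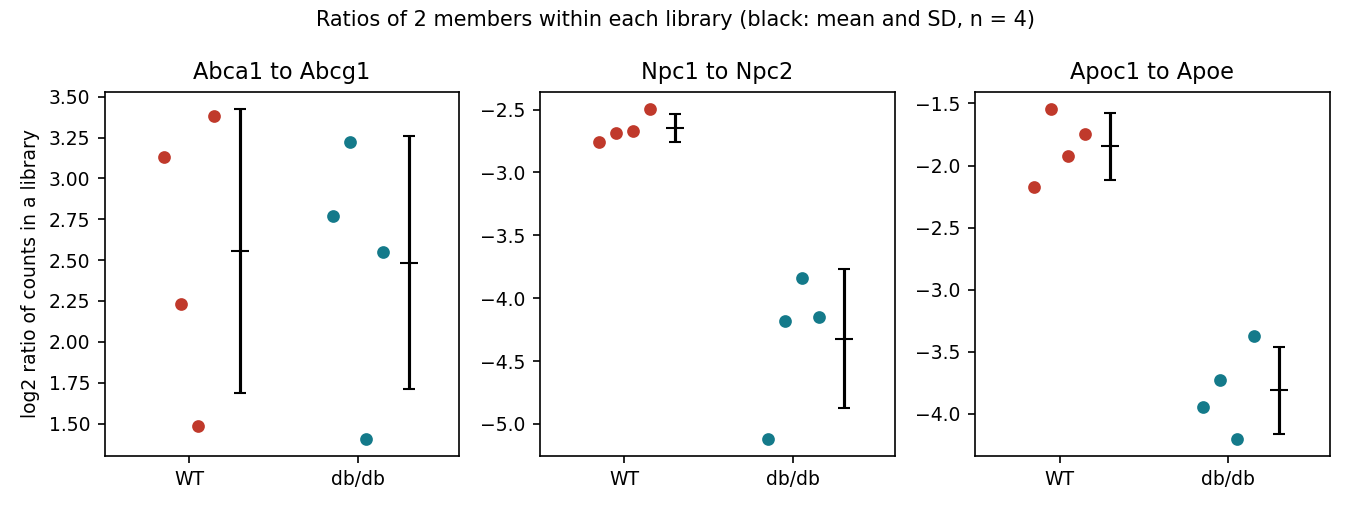
Log2 ratio of the counts of 2 genes within each library (vertical axis) for WT (red) and db/db (blue), with mean and SD in black (n = 4). The ratios of Npc1 to Npc2 and of Apoc1 to Apoe are lower in all 4 db/db libraries than in any WT library, and the ratio of Abca1 to Abcg1 overlaps.

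Soat1 (ENSMUSG00000026600, chr1:156424525-156474331, mm10, minus strand) encodes the enzyme that esterifies free cholesterol for storage in droplets, and in foam cells it is the main source of these esters. It had 6, 5, 3 and 2 counts in WT replicates 1 to 4 and 31, 6, 21 and 16 counts in db/db replicates 1 to 4, or 0.849 to 2.43 CPM in WT and 1.91 to 9.33 CPM in db/db. The db/db replicates 1, 3 and 4 lay above all of WT, and db/db replicate 2 lay among the WT values. Too few libraries reached 10 counts for the filter, and with no filter the log2 fold change was 1.94 ± 0.54 (SE; adjusted p 0.00300 by edgeR). Its counts came near the filter only in db/db, so the fits that left out a library and let it pass the filter are no support for a difference. An exact two-sided permutation test of its mean log2(CPM + 1) gave p = 0.0857.

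**Figure D3:**
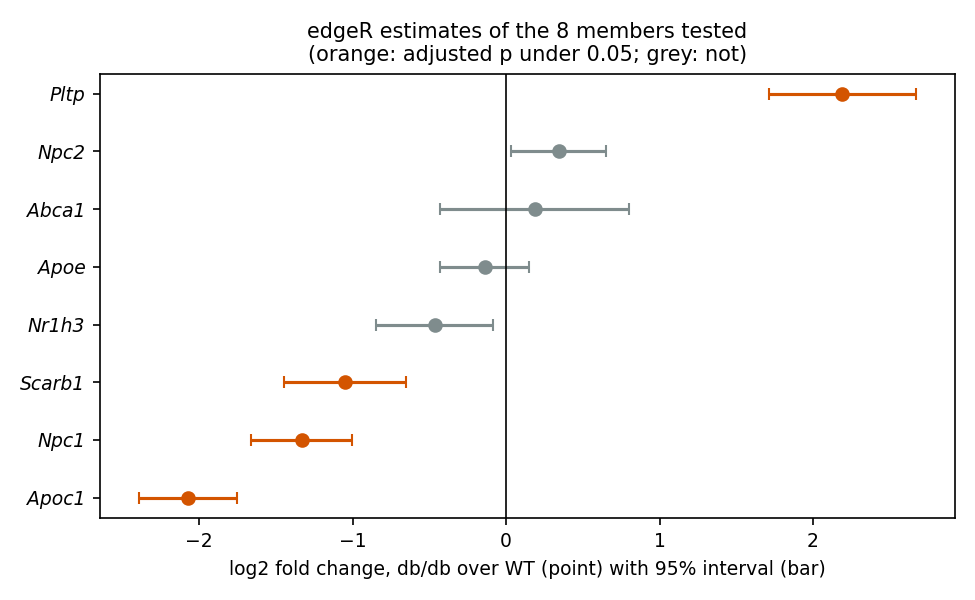
Log2 fold change of db/db over WT (horizontal axis) with its 95% interval for the 8 genes tested by edgeR, in orange where the adjusted p was under 0.05. Pltp lies to the right at 2.19, Scarb1, Npc1 and Apoc1 to the left at −1.05, −1.33 and −2.07, and Npc2 (0.34), Abca1 (0.19), Apoe (−0.14) and Nr1h3 (−0.46) lie between them in grey.

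The rest of the pathway was described in 8 lists of related genes. Of 12 other apolipoproteins only Clu and Apod passed the filter, and both were higher in db/db, beside 15.8% of all genes. Clu, the chaperone clusterin, was at 10.2 ± 2.68 CPM in WT and 28.6 ± 9.93 CPM in db/db (SD, n = 4; log2 fold change 1.496, edgeR adjusted p 0.000427), and Apod, a lipocalin carried on HDL, had a log2 fold change of 1.07 (adjusted p 0.0122). Apob, Apoa4 and Apoa5 had 0 counts in all libraries. Among 15 lipoprotein and scavenger receptors, 9 were tested, 6 were higher and 1 lower, beside 15.8% and 11.9% of all genes. Among the 6 was Msr1, which had 0 to 17 counts in WT and 20 to 35 in db/db and reached the filter through db/db. Cd36, the fatty acid and oxidised lipoprotein receptor, was at 403 ± 30.6 CPM in WT and 565 ± 79.6 CPM in db/db (log2 fold change 0.49, edgeR adjusted p 0.0108). The scavenger receptor Stab1 had a log2 fold change of 1.25 (adjusted p 0.0119) and Lrpap1, a chaperone of LDL receptor family members, one of 0.70 (adjusted p 0.0141). Vldlr, the receptor of very-low-density lipoprotein, was the gene that fell (−0.49, adjusted p 0.0108).

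Of 8 LXR partners and targets, 7 were tested, none rose and 2 fell, a share near the 27.7% called among all genes. These were Rxrb, a dimer partner (46.7 ± 6.18 CPM in WT, 27.9 ± 3.13 CPM in db/db, log2 fold change −0.74, edgeR adjusted p 0.00274), and Nr1h2, the gene of LXR beta (−0.57, adjusted p 0.0280). The targets Srebf1, Mylip, Lpcat3 and Smpdl3a did not pass, with log2 fold changes of −0.03, −0.27, −0.17 and 0.08. Of 12 other ABCA and ABCG transporters, 5 were tested and 1 was called, beside 27.7% of all genes. This was Abca2, a lysosomal sterol transporter (log2 fold change 0.58, edgeR adjusted p 0.0141).

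Among 17 genes of lysosomal release and sterol transfer between membranes, 15 were tested, 2 rose and 5 fell, beside 15.8% and 11.9% of all genes. Among the 5 was Osbp, which had 11 to 25 counts in WT and 5 to 11 in db/db and reached the filter through WT. Lipa, the acid lipase upstream of Npc1 and Npc2, was at 50.6 ± 9.94 CPM in WT and 91.5 ± 9.70 CPM in db/db (SD, n = 4; log2 fold change 0.86, edgeR adjusted p 0.000587), and the lysosomal membrane protein Lamp1 had a log2 fold change of 0.50 (adjusted p 0.00539). The oxysterol-binding proteins Osbpl9 and Osbpl1a, which carry lipids at contacts between membranes, fell by 0.85 and 1.15 on the log2 scale (adjusted p 0.000128 and 0.000270). Gramd1a, which brings plasma membrane cholesterol to the endoplasmic reticulum, fell by 1.31 (edgeR adjusted p 0.0041). It had 37 to 67 counts in WT and 7 to 41 in db/db. The filter was met by the WT libraries and not by every db/db library. Lipa was also on the list of lipid-associated macrophage markers.

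Of 5 genes of esterification and ester hydrolysis, 3 were tested, 1 was higher and 1 lower, beside 15.8% and 11.9% of all genes. Nceh1, a cholesteryl ester hydrolase of macrophages, was higher (2.15 ± 1.69 CPM in WT, 9.11 ± 2.82 CPM in db/db, log2 fold change 2.08, edgeR adjusted p 0.00235), Ces1d was lower (−0.89, adjusted p 0.00705), and Lipe, the hormone-sensitive lipase, had a log2 fold change of 0.04. Nceh1 had 2 to 11 counts in WT and 13 to 39 in db/db and passed the filter through db/db, so its call is no independent support for a difference. Soat2, the other sterol acyltransferase, had 0 counts in all libraries. The oxysterol-forming enzyme Cyp27a1 was the only one of 6 oxysterol enzymes tested, and was higher (log2 fold change 0.53, edgeR adjusted p 0.0284). Of 23 cholesterol synthesis genes and regulators, 19 were tested, 6 were higher and 3 lower, beside 15.8% higher and 11.9% lower among all genes. Among the 6 were Msmo1 and Hmgcs1 (log2 fold changes 1.41 and 0.65), and the 3 were Fdft1, Insig1 and Pmvk (−1.54, −1.17 and −0.54). Some of the 6, such as Hsd17b7 (5 to 14 counts in WT, 11 to 33 in db/db), also had WT libraries under 10 counts.

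**Figure D4:**
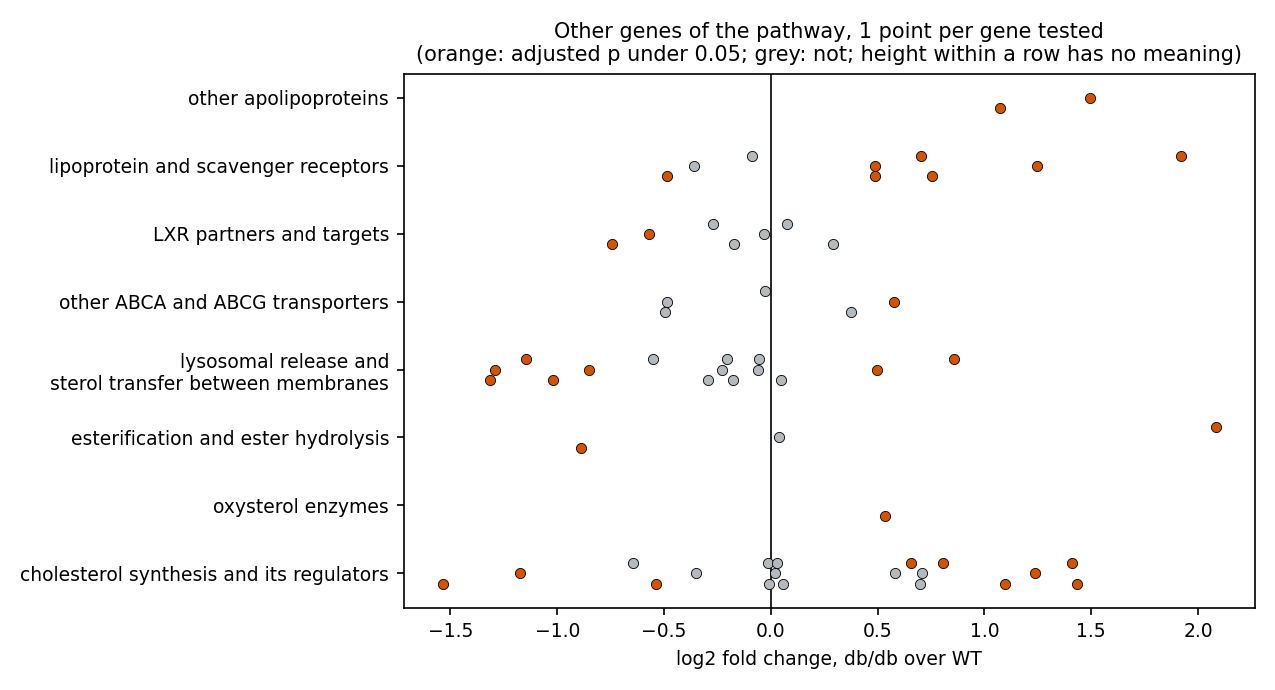
Log2 fold change of db/db over WT (horizontal axis) for every gene tested in the 8 lists (vertical axis), 1 point per gene, in orange where the edgeR adjusted p was under 0.05. The receptors lie mostly to the right (6 higher, 1 lower). The genes of lysosomal release and sterol transfer lie mostly to the left (2 higher, 5 lower). Of all genes tested, 15.8% were higher and 11.9% lower. Among the genes counted here, Msr1 reached the filter through db/db and Osbp through WT.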

How the data were processed

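A commercial service made single-end digital mRNA-seq libraries, and the authors deposited raw read counts per Ensembl gene. The study's methods name bbduk, STAR and HTSeq-count with the build mm10, whereas the submitters' processing notes name Trimmomatic, HISAT2 and DESeq2. The annotation release, the strand setting and the use of molecular identifiers are not given in the sources used here, so PCR copies may be among the counts, and detection floors cover counting error only, whereas standard errors and intervals from edgeR include the spread between mice. A table of normalized values and a sample sheet were not used here.

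Of 31053 identifiers, 30934 were matched to symbols in GENCODE M21 (mm10). Groups and replicate numbers were taken from the sample titles. Genes were filtered with filterByExpr (minimum count 10, minimum total 15), scaled by TMM and tested by quasi-likelihood with edgeR 4.0.16 (R 4.3.3), with no term besides genotype and Benjamini-Hochberg adjustment over all 9264 genes at 0.05. CPM values are counts over the filtered total times the TMM factor. Standard errors were derived from the F statistic. Ratios within a library had 0.5 added to each count. The code was tested on simulated counts. Total counts ran from 2374079 to 3240074, and replicates of a genotype differed by more than counting error (chi-square over its degrees of freedom 3.99 or more).

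Alternatives were DESeq2 1.42.0, limma-voom (limma 3.58.1), other scalings and filters, the replicate number as a block, a skeletal muscle score as a covariate and leaving out each library. Leaving out each library with no filter was added for 6 low-count genes after seeing the data. Per list, up to 3 tested genes in each direction with the smallest adjusted p under 0.05 were named, and targets of LXR that did not pass were named after their values were seen. The value of 1 gene that this rule names is not reported here. The 10 members, the lists and the motifs were chosen with earlier results of these data known. Promoter windows were those of RefSeq (GRCm38.p6). No label gives a batch.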

Additional observations from a re-analysis of the deposited data

Results flagged for a closer look

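Abcg1 in WT replicate 3 lay far from the other WT libraries, at 9.39 CPM (25 counts) against 1.27 to 2.53 CPM. It was the only outlying library among 26 groups of 4 values examined, and chance alone gives about 1 such group in 20. Its cause was not tested.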

How the results depend on the processing

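The count of 4 members differing between the genotypes was also 4 under 4 other scalings, with mitochondrially encoded genes left out, with at least 10 counts in every library, with DESeq2 and with limma-voom. It was 6 with no filter (Nr1h3 and Soat1 added), 5 with the replicate number as a block (Nr1h3 added), 3 with the muscle covariate (Scarb1 lost) and 4 to 6 when single libraries were left out, where Soat1, Nr1h3 or Npc2 were added. Apoc1, Npc1 and Pltp were called under all 19 alternatives, with log2 fold changes from −2.23 to −1.87, from −1.42 to −1.01 and from 2.02 to 2.32. Abca1 changed sign without db/db replicate 2 (−0.0222), in a range of −0.0222 to 0.44 over the libraries left out, and the ratio of Abca1 to Abcg1 ranged from −0.43 to 0.29, neither past a threshold. The replicate numbers gave no sign of pairing, with correlations of same-numbered deviations between −0.0781 and 0.049. Such correlations cannot show whether same-numbered samples were handled together. With the replicate block the Npc1 to Npc2 and Apoc1 to Apoe ratios kept differences of −1.67 and −1.96 at an exact sign-flip p of 0.125, the smallest that 4 pairs allow. No scaling moved the median of all genes by more than 0.1 on the log2 scale. With no filter, Abcg1 ranged from −0.56 to 0.75 over the libraries left out, turning positive without WT replicate 3 alone. Depth limits Abcg1 and Soat1 most, since they held few counts per library.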

Other observations

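Some genes of the pathway lay under the filter on low counts and were looked at with no filter, chosen after their values were seen. Apoc4, the neighbour of Apoc1 that encodes a very-low-density lipoprotein apolipoprotein, had 2, 0, 1 and 0 counts in WT replicates 1 to 4 and 24, 13, 4 and 8 counts in db/db replicates 1 to 4, all above WT (edgeR adjusted p 0.000389, and 0.0149 or less without any single library). Since Apoc4 was singled out for this pattern and was detected mainly in db/db, this p is no independent support. Apoc2, in the same cluster, had 3 counts in db/db replicate 1 and 0 elsewhere. Apoc3, an inhibitor of lipoprotein lipase, had 8, 7, 50 and 9 counts in WT and 8, 3, 0 and 2 counts in db/db (adjusted p 1.56e-05), and WT replicate 3, where Abcg1 was also high, held most of the WT counts. Without that library the log2 fold change of Apoc3 was −1.63 instead of −2.72 and the call was lost (edgeR adjusted p 0.143). The transporter gene Abca9 was at 1.69 CPM in WT and 6.66 ± 2.17 CPM in db/db (SD, n = 4; edgeR adjusted p 0.00287). Its counts were 6, 1, 7 and 3 in WT replicates 1 to 4 and 25, 22, 8 and 23 in db/db, so it was detected mainly in db/db. Arl4c, an LXR target, was at 1.41 CPM in WT and 4.57 ± 2.20 CPM in db/db (edgeR adjusted p 0.0388), a call that was lost without WT replicate 1, 2 or 4 or db/db replicate 1, 2 or 4 (adjusted p up to 0.208). Like Apoc4, the genes Apoc3, Abca9 and Arl4c were singled out after their values were seen, so their p values are no independent support either.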
